A study of Homo sapiens with 4 samples.

Results

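The genes described here are 10 markers used to recognise liver cancer stem cells, namely PROM1, EPCAM, CD24, CD44, ANPEP, THY1, SOX9, KRT19, LGR5 and ALDH1A1. They were chosen by name, and all 10 were found among the 18398 gene rows measured in each library. The libraries came from Huh1 and Huh7, which are established lines of human liver carcinoma cells, transfected with the negative control siRNA (NCsiRNA) or with an siRNA against CDCA8 (CDCA8siRNA) at 15 nM for 48 h. CDCA8 encodes borealin, a subunit of the chromosomal passenger complex that acts in mitosis, and the study asked whether its silencing affects growth and stemness of these cells. There were 4 libraries of total RNA, 1 for each cell line and siRNA, so no spread between cultures of 1 condition could be measured. Each line is a single long-term culture, and bulk RNA does not tell fewer marker-positive cells from less RNA per cell.

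Cancer stem cells are tumour cells that renew themselves and give rise to the other cells of the tumour. In liver cancer they are usually sorted by surface glycoproteins (CD133, encoded by PROM1, EPCAM, CD24, CD44, CD13, encoded by ANPEP, and CD90, encoded by THY1), and further recognised by the Wnt-amplifying receptor LGR5, by the biliary and progenitor cell genes SOX9 and KRT19, or by the aldehyde dehydrogenase activity to which ALDH1A1 contributes. Several of these genes are also used by normal liver cells: ALDH1A1 is abundant in hepatocytes, SOX9 and KRT19 mark bile duct cells, and THY1 marks stromal cells.

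Levels are in RPKM, the reads of a gene divided by its transcript length in kilobases and by the depth of the library, so that genes can be compared with each other as far as the transcript lengths are right. Library depth, worked back from the smallest steps of the values, ranged from 12197606 to 13384836 reads. CDCA8 itself was at 24.1 RPKM with NCsiRNA and 5.86 RPKM with CDCA8siRNA in Huh1, or 24.3% of the control, and at 51.5 and 7.36 RPKM in Huh7, or 14.3%. Hepatocyte markers were present in all 4 libraries (11 of 11 at 1 RPKM or more), with ALB, serum albumin, between 721 and 3447 RPKM.

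With NCsiRNA, 7 of the 10 stem cell markers reached 1 RPKM in Huh1 and 9 of 10 in Huh7, and the counts were the same with CDCA8siRNA. The median level of the 10 genes was 7.93 and 10.3 RPKM in the Huh1 libraries and 26.5 and 27.8 RPKM in the Huh7 libraries, against medians of 3.10 to 4.08 RPKM over all genes. ALDH1A1 alone made up 85.9% and 88.1% of the summed RPKM of the 10 genes in Huh1, and 47.1% and 53.3% in Huh7.

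**Figure D1:**
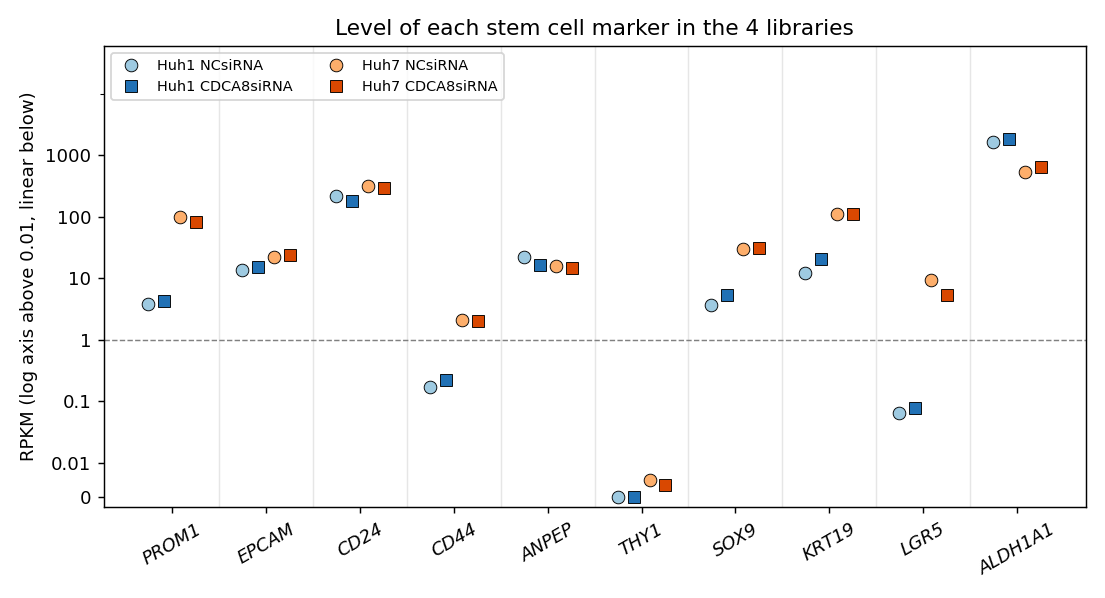
RPKM of the 10 liver cancer stem cell markers in each of the 4 libraries, on an axis that is log above 0.01 and linear below it, with 1 point per library and no error bars because each condition is 1 library. PROM1, SOX9, KRT19, LGR5 and CD44 lay higher in both Huh7 libraries than in both Huh1 libraries, and ALDH1A1 lay lower.

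Among the surface glycoproteins, PROM1, a membrane protein with 5 transmembrane segments found on plasma membrane protrusions, differed most between the lines. It stood at 3.83 RPKM in Huh1 with NCsiRNA, 4.31 in Huh1 with CDCA8siRNA, 101 in Huh7 with NCsiRNA and 83.7 in Huh7 with CDCA8siRNA. These values rest on 204, 226, 4905 and 4081 reads over a transcript of 3977 nucleotides. Both Huh7 libraries lay far above both Huh1 libraries, in which PROM1 ranked near the middle of all genes, above 52.4% and 53.2% of them, while in Huh7 it ranked above 96.3% and 95.5%.

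EPCAM, an epithelial adhesion molecule whose cleaved tail can enter the nucleus, was present in both lines at 13.6 and 15.2 RPKM in Huh1 and 22.7 and 24.3 RPKM in Huh7, with NCsiRNA first in each pair. The groups of the 2 lines did not overlap, on 313 to 513 reads per library. CD24, a small heavily glycosylated protein anchored to the membrane by a lipid, was the second most abundant of the 10 genes in every library, at 215 and 183 RPKM in Huh1 and 314 and 294 RPKM in Huh7. No transcript length gave whole reads for CD24, the annotation names 3 pseudogenes of it, and how reads shared with such copies were divided is not given in the sources used here, so its level is uncertain.

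CD44, a receptor for hyaluronan, was low throughout, at 0.174 and 0.223 RPKM in Huh1 and 2.10 and 2.06 RPKM in Huh7. The row carries 1 transcript of a gene with many splice forms, so reads that fall on other forms may not be in it. ANPEP, a zinc aminopeptidase of the cell surface, had 22.2 and 16.2 RPKM in Huh1 and 15.9 and 14.6 RPKM in Huh7. Its lowest Huh1 value and its highest Huh7 value were close together, and the lines did not overlap by a narrow margin. THY1, a small lipid-anchored protein of the immunoglobulin superfamily, was listed at 0 in both Huh1 libraries and at 0.00489 and 0.00340 RPKM in Huh7, which is less than 1 read in each.

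LGR5, a receptor for R-spondins that strengthens Wnt signalling, was at 0.0649 and 0.0790 RPKM in Huh1 and at 9.43 RPKM with NCsiRNA and 5.35 RPKM with CDCA8siRNA in Huh7. The values correspond to 2.5 and 3 reads in Huh1 and to 331 and 189 reads in Huh7 if the transcript counted was 2879 nucleotides long. A length of 2 times that gives whole reads as well and would double these numbers. At either length LGR5 was near the detection limit in Huh1.

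SOX9, a transcription factor of bile duct and progenitor cells, was at 3.72 and 5.28 RPKM in Huh1 and 30.4 and 31.3 RPKM in Huh7. KRT19, a keratin of bile duct epithelium, was at 12.04 and 20.5 RPKM in Huh1 and 110 and 112 RPKM in Huh7. In both genes the Huh7 libraries lay close together and above both Huh1 libraries, while the Huh1 libraries differed from each other. The annotation names 5 pseudogenes of KRT19, and its reads came in parts of 1/6, so part of its level may belong to copies.

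ALDH1A1, which oxidises retinal to retinoic acid, was at 1650 and 1816 RPKM in Huh1 and at 539 and 647 RPKM in Huh7. It ranked 22 and 20 among all genes in Huh1 and 110 and 87 in Huh7, and was the most abundant of the 10 genes in every library.

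The order of the levels differed between the lines. In Huh1 with NCsiRNA it ran from ALDH1A1 over CD24, ANPEP, EPCAM, KRT19, PROM1 and SOX9 to CD44, LGR5 and THY1. The middle of that order differed in the Huh1 library with CDCA8siRNA, where SOX9 passed PROM1, and KRT19 passed ANPEP and EPCAM. That library is the other condition and not a repeat, so the spread of the order between cultures is not known. In Huh7 with NCsiRNA the order was ALDH1A1, CD24, KRT19, PROM1, SOX9, EPCAM, ANPEP, LGR5, CD44 and THY1, and it was the same with CDCA8siRNA.

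The promoters of PROM1 and ALDH1A1 are shown because these genes had the largest line differences in either direction on the log2(RPKM + 1) scale, on which low genes such as LGR5 count for less than by plain ratio, PROM1 higher and ALDH1A1 lower in Huh7. The sequences are the 250 bases before a transcription start in RefSeq on GRCh38.p14, written 5′ to 3′ on the gene's strand. That of PROM1 lies at chr4:16076119-16076368 on the minus strand, before the start of the transcript in the files, 1 of 4 starts listed for the gene. The other starts listed for PROM1 lie 7218 to 7905 bases upstream of it, so the stretch shown lies inside the annotated gene. The farthest of them held CCAAT 53 bases before it. Which start the cells use, and whether the stretch shown acts as a promoter, was not tested. That of ALDH1A1 lies at chr9:72953054-72953303 on the minus strand. Capitals mark matches, on either strand, to CCAAT, to TATAAA, to CTTTGA, the core bound by TCF/LEF factors of the Wnt pathway, or to TGANTCA, the site of AP-1 factors.
PROM1: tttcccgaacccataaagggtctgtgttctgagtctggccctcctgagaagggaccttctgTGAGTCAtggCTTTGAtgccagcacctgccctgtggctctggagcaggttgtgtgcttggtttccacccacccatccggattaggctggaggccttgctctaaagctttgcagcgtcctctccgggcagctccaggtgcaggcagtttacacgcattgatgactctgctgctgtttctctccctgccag
ALDH1A1: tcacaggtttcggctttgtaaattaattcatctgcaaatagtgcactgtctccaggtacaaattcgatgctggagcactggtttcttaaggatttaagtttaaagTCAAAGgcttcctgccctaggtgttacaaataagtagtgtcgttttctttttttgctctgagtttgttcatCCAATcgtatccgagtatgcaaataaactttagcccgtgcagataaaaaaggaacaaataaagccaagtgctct
The PROM1 stretch shown held TGAGTCA 189 bases and CTTTGA 179 bases before the start. The ALDH1A1 promoter held CTTTGA on the opposite strand, read as TCAAAG, 145 bases before the start and CCAAT 74 bases before it. Of 35116 promoters of this length, 11.2% held CTTTGA, 6.57% TGANTCA, 32.0% CCAAT and 10.7% TATAAA. A match is a description of the letters and not a site shown to be bound. Promoters were found for 5 of the 10 genes (PROM1, CD24, CD44, ANPEP and ALDH1A1), with 11 starts in all, and the other 9 starts showed no match to CTTTGA or TGANTCA.

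The first comparison asked whether the markers differed after CDCA8 silencing. No marker moved 2-fold in either line, and none passed the test of the mean difference over both lines. In Huh1, 0 of the 7 markers at 1 RPKM or more in at least 1 library of the pair differed 2-fold on the log2(RPKM + 1) scale, where 0.494% of all genes did, and in Huh7 0 of 9 did, where 1.57% of all genes did. In a limma fit of all 4 libraries that took out the difference between lines, 0 of the 9 markers tested had a Benjamini-Hochberg adjusted p under 0.05, where 6.16% of all genes did (726 of 11777, with 3.59% higher and 2.57% lower). At an unadjusted p under 0.05 there were 3 of 9 markers, where 23.3% of all genes passed.

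The 3 were ALDH1A1, KRT19 and ANPEP, each with the same direction in both lines, though in Huh7 KRT19 and ANPEP were within counting error of no difference. ALDH1A1 had a log2 fold change of 0.20 (SE 0.0671, limma adjusted p = 0.124), KRT19 of 0.37 (SE 0.151, adjusted p = 0.190) and ANPEP of -0.27 (SE 0.114, adjusted p = 0.202). The adjusted p of limma was 0.247 for CD24, 0.318 for LGR5, 0.320 for SOX9, 0.493 for EPCAM, 0.783 for PROM1 and 0.945 for CD44, and THY1 did not pass the filter on low values. The median log2 fold change of the markers tested was 0.02 against 0.03 over all genes, and the median size 0.20 against 0.14. CDCA8 had a log2 fold change of -2.26 in the same fit (SE 0.171, limma adjusted p = 0.00332), the largest in size of all genes. Without the filter on low values or without the cell line as a covariate, limma called 0 genes for CDCA8siRNA, CDCA8 and every gene named below for this siRNA included, with 2440 and 77 genes at an unadjusted p under 0.05. The fit has 1 residual degree of freedom, borrows its spread from all genes, and treats the lines as replicates of the siRNA effect.

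Within a line, some markers differed between the libraries by more than counting error. The share of all genes that did so was not worked out, and genes with many reads pass this bound with small differences. On the log2(RPKM + 1) scale the median size of the difference was 0.23 for the markers in Huh1, against 0.14 over all genes. In Huh7 it was 0.10 for the markers, against 0.19 over all genes. The intervals that follow are exact 95% intervals of the ratio of reads. For CD24 and SOX9 the reads came from the annotated length and are approximate. Reads were rounded to whole numbers, and those of LGR5 were taken at a length of 2879 nucleotides. The intervals hold for counting error only, and for these 2 libraries rather than the conditions, because reads amplified by PCR are not independent molecules and no culture was repeated.

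KRT19 with CDCA8siRNA was 1.70 times its NCsiRNA level in Huh1 (interval 1.44 to 2.00) and 1.02 times in Huh7 (0.955 to 1.08). SOX9, its companion as a bile duct marker, was at 1.42 times in Huh1 (1.18 to 1.71) and 1.03 times in Huh7 (0.957 to 1.11). ANPEP was at 0.729 times in Huh1 (0.664 to 0.800) and 0.922 times in Huh7 (0.828 to 1.03). For these 3 genes the Huh1 interval lay clear of 1 and the Huh7 interval held 1, but a difference between the lines in response was not tested.

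LGR5 was at 0.568 times its NCsiRNA level in Huh7 (0.472 to 0.681), the ratio farthest from 1 among the markers in that line. Its ratio in Huh1, 1.22 (0.174 to 18.2), rests on too few reads to show a change of either direction. PROM1 was at 0.827 times in Huh7 (0.793 to 0.863) and 1.12 times in Huh1 (0.926 to 1.36). That is a lower level on many reads in the line with more PROM1 and no difference beyond counting error in the other.

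CD24 was lower with CDCA8siRNA in both lines, at 0.851 times in Huh1 (0.822 to 0.880) and 0.938 times in Huh7 (0.911 to 0.965). ALDH1A1 was higher in both, at 1.10 times in Huh1 (1.09 to 1.11) and 1.20 times in Huh7 (1.18 to 1.23). EPCAM was at 1.12 times in Huh1 (0.957 to 1.31) and 1.07 times in Huh7 (0.946 to 1.22), within counting error in each line. CD44 stood at 1.28 times in Huh1 and 0.985 times in Huh7, and no interval is given. Its transcript length could not be worked back, as for CD24 and SOX9, and its reads were few. The annotated length gives 1.13 and 1.42 reads in the Huh1 libraries and 12.4 and 12.3 in the Huh7 libraries.

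**Figure D2:**
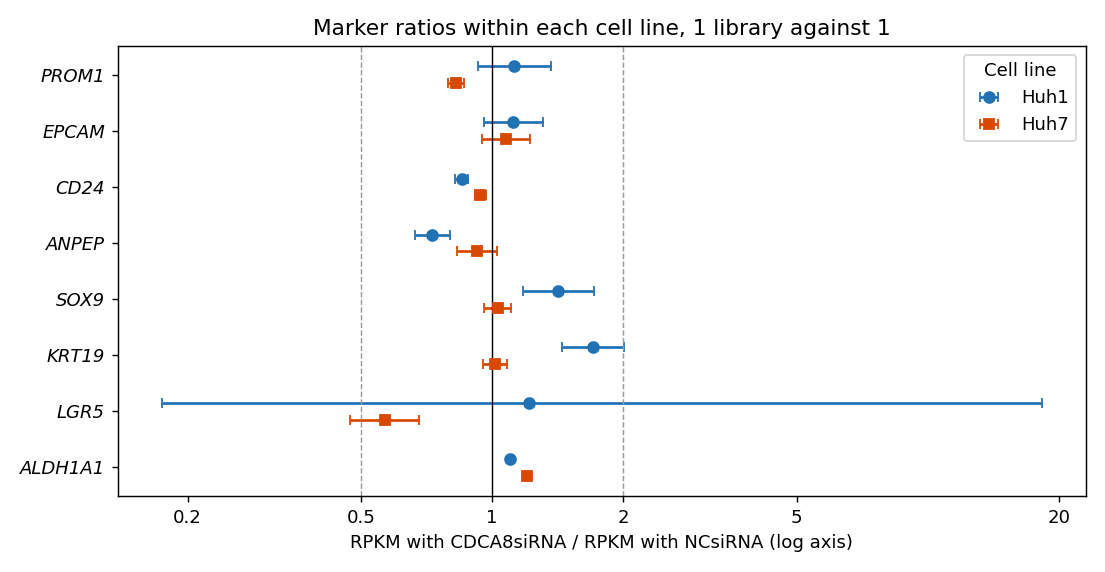
Ratio of RPKM with CDCA8siRNA to NCsiRNA for 8 markers in Huh1 (circles) and Huh7 (squares), on a log axis, with whiskers for the 95% interval from counting reads and dashed lines at 0.5 and 2. CD44 and THY1, without an interval, are not drawn. KRT19 at 1.70 in Huh1 and LGR5 at 0.568 in Huh7 lay farthest from 1 among the markers with at least 1 RPKM, and no marker reached 2-fold.

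The second comparison set Huh7 against Huh1. All 9 markers tested differed between the lines, 7 higher and 2 lower in Huh7, in the limma fit, which takes the NCsiRNA and CDCA8siRNA libraries of a line as its 2 samples. Of all genes tested, 71.2% differed, 42% higher and 29.1% lower, so a call by itself says little here. CD44 and LGR5 passed the filter only through Huh7, so the direction of their difference was fixed by the filter. Among genes with at least 1 RPKM in each line, which leaves both out, 7 of 7 markers were called, 5 higher and 2 lower, where 67.7% of 10357 genes were. Over these genes the median log2 difference of the 7 markers was 0.67 in value and 1.55 in size, against 0.10 and 0.46 over all genes.

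PROM1 had the largest difference, 4.20 on the log2(RPKM + 1) scale (SE 0.120, limma adjusted p = 5.52e-08), the 152nd largest in size of 11777 genes. KRT19 was higher by 2.75 (SE 0.151, adjusted p = 1.61e-06) and SOX9 by 2.55 (SE 0.123, adjusted p = 7.72e-07), from the same limma fit. EPCAM was higher by 0.67 (SE 0.0975) and CD24 by 0.61 (SE 0.0752), with limma adjusted p-values of 0.000380 and 0.000144. LGR5 differed by 2.92 (SE 0.188) and CD44 by 1.36 (SE 0.148), given as values only, since the filter fixed their direction. With a pseudocount of 0.1 in place of 1 RPKM these differences were 5.39 and 2.87.

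The markers lower in Huh7 were ALDH1A1 and ANPEP. ALDH1A1 fell by 1.55 on the log2 scale (SE 0.0671, limma adjusted p = 4.36e-07). ANPEP differed by -0.30 (SE 0.114, limma adjusted p = 0.0439), and that call was lost without the filter on low values (adjusted p = 0.105), without the siRNA as a covariate (0.203) and without the trend of limma (0.0655), in a range of 0.00466 to 0.203 over the alternatives.

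As plain ratios with NCsiRNA, PROM1 was 26.4 times as high in Huh7 as in Huh1 (22.9 to 30.5 by counting error), KRT19 9.18 times (8.02 to 10.5) and SOX9 8.16 times (7.03 to 9.53). LGR5 was 145 times as high, with an interval from 49.9 to 1506 because of its few reads in Huh1. That interval is approximate, since it used rounded reads at a length of 2879 nucleotides and would be narrower at the longer length. With CDCA8siRNA the ratios of PROM1, KRT19, SOX9 and LGR5 were 19.4, 5.48, 5.92 and 67.8, each smaller than with NCsiRNA. ALDH1A1 in Huh7 was at 0.327 times its Huh1 level with NCsiRNA and 0.356 times with CDCA8siRNA. On the log2(RPKM + 1) scale, 6 of 9 markers differed 2-fold with either siRNA, 5 higher and 1 lower, CD44 and LGR5 among the higher, where 27.2% of all genes did with NCsiRNA (17% higher, 10.2% lower) and 27.5% with CDCA8siRNA (17.4% higher, 10.1% lower). Without CD44 and LGR5 they were 4 of 7, with PROM1, KRT19 and SOX9 higher and ALDH1A1 lower.

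**Figure D3:**
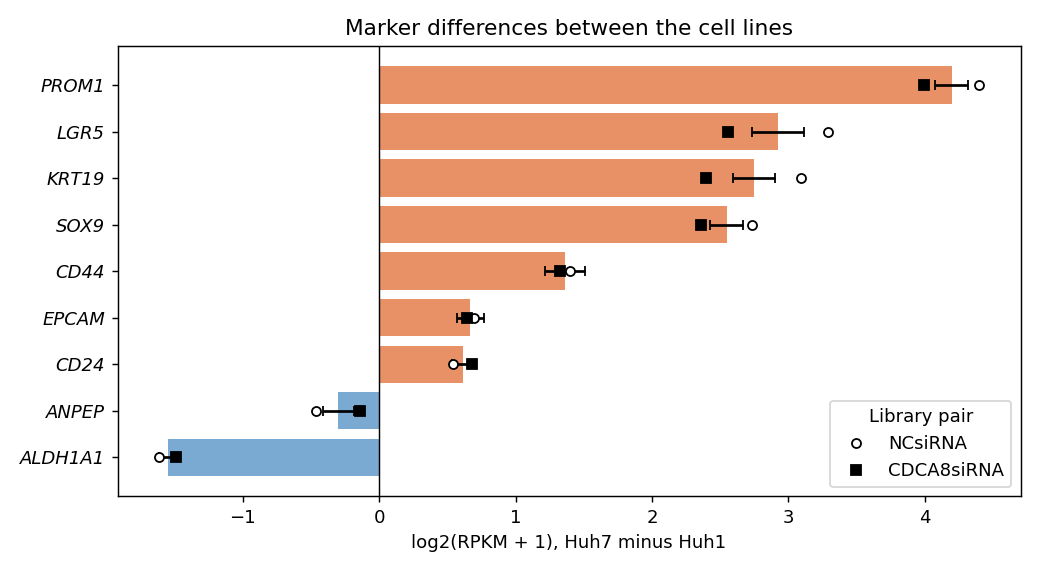
Log2 difference of Huh7 minus Huh1 for the 9 markers tested by limma on the log2(RPKM + 1) scale, with whiskers for the SE. Open circles are the difference between the 2 NCsiRNA libraries and squares that between the 2 CDCA8siRNA libraries. Bars run from 4.20 for PROM1 to -1.55 for ALDH1A1.

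The bile duct markers, KRT19 and SOX9 among them, differed between the lines in both directions. Of 6 tested, 4 were called higher and 2 lower in Huh7 (42% and 29.1% of all genes), with KRT7 passing the filter only through Huh1. KRT7, the other keratin typical of bile ducts, was at 84.4 and 81.7 RPKM in Huh1 and 0.660 and 0.572 RPKM in Huh7, the reverse of KRT19. SPP1, the secreted protein osteopontin and a ligand of CD44, was at 2107 and 2039 RPKM in Huh1 and 13.1 and 28.6 RPKM in Huh7. CFTR, a chloride channel of bile duct cells, was at 0.0122 and 0.0494 RPKM in Huh1 and 1.26 and 2.32 RPKM in Huh7, and passed the filter only through Huh7. For CDCA8siRNA 0 of the 6 were called (limma, background 6.16%).

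**Figure D4:**
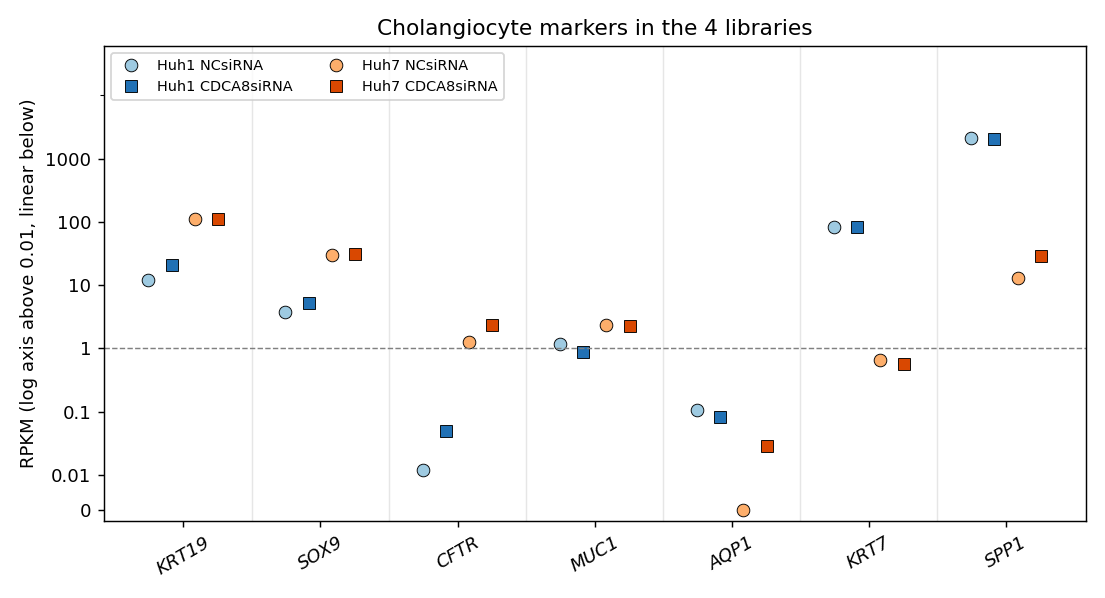
RPKM of the 7 bile duct markers in the 4 libraries, on an axis that is log above 0.01 and linear below it, with 1 point per library. KRT19 and SOX9 were higher in both Huh7 libraries, and KRT7 and SPP1 were higher in both Huh1 libraries.

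Among hepatocyte markers, several were lower with CDCA8siRNA in both lines. Of 11 tested, limma called 6 lower and 0 higher with CDCA8siRNA, where 2.57% of all genes were called lower. The other 5 were not called, and the median of the list was -0.52. APOB, the apolipoprotein of very low density lipoprotein, fell by 0.70 on the log2 scale (SE 0.0844, limma adjusted p = 0.00704). APOA1, the main apolipoprotein of high density lipoprotein, fell by 0.65, and TF, the iron carrier transferrin, by 0.53. Some genes of the list went the other way in 1 line. With CDCA8siRNA, TTR, transthyretin, was higher in Huh7 (48.5 RPKM against 29.3) and lower in Huh1 (4.49 against 5.10). The keratins KRT8 (1467 RPKM against 1360) and KRT18 (1169 against 986) were higher in Huh1. In Huh7 these keratins were lower, KRT8 at 1569 RPKM against 2133 and KRT18 at 1382 against 1938. Between the lines 3 of the 11 were called higher and 8 lower in Huh7 (42% and 29.1% of all genes). ASGR1, a receptor of hepatocytes (-3.69), and ALB (-1.73) were lower in Huh7 like ALDH1A1, while TTR was higher (2.74).

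Further markers of stem and progenitor cells were fixed as a list of 24, of which 22 were in the files (MYC and NCAM1 were not analysed here) and 16 tested. With CDCA8siRNA 1 of 16 rose and 0 fell in the limma fit, close to the share of all genes called (6.16%). The 1 that rose was TSPAN8, a tetraspanin that binds EPCAM (0.44, SE 0.0996, limma adjusted p = 0.0426). Between the lines, 11 were called higher and 5 lower in Huh7, where 42% and 29.1% of all genes were. Of these, SALL4 and CXCR4 among the higher and ABCG2 and POU5F1 among the lower reached 1 RPKM in 1 line only. AFP, the fetal serum protein alpha-fetoprotein, was at 24.8 and 27.5 RPKM in Huh1 and at 865 and 715 RPKM in Huh7. CXCR4, a chemokine receptor, was listed at 0 in Huh1 and was at 17.4 and 17.7 RPKM in Huh7.

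Of 15 genes that cleave EPCAM or act with it, 14 were tested, and 2 rose and 1 fell with CDCA8siRNA, where 3.59% of all genes rose and 2.57% fell. FHL2, a partner of the EPCAM tail in the nucleus, rose by 0.85 (SE 0.103, limma adjusted p = 0.00697), with Huh1 levels of 5.74 and 11.8 RPKM and Huh7 levels of 20.9 and 36.8 RPKM. TSPAN8 was the other that rose. PSEN2, a subunit of the gamma-secretase that cuts EPCAM, fell by 0.78 (SE 0.164, limma adjusted p = 0.0348). Between the lines 6 were called higher in Huh7, SPINT1 among them (1.91), and 5 lower, CLDN7 among them (-2.06), where 42% and 29.1% of all genes were. ST14, another gene of this list, passed the filter only through Huh1.

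Among 14 partners and ligands of CD44, 8 were tested, and EZR, which links CD44 to the actin cytoskeleton, rose with CDCA8siRNA (0.41, SE 0.0862, limma adjusted p = 0.0356), where 3.59% of all genes did. None of these 8 fell at that threshold. Between the lines 2 were called higher and 5 lower in Huh7 (42% and 29.1% of all genes). HAS3 and MSN passed the filter only through Huh1. Besides SPP1, those lower included MSN, a relative of EZR that was listed at 0 in both Huh7 libraries against 114 and 123 RPKM in Huh1, and SLC7A11, the cystine transporter that CD44 variants stabilise (-3.15).

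Of 18 genes around LGR5, its R-spondin ligands and Wnt targets, 17 were in the files (RSPO1 was not analysed here) and 11 tested, with 0 called for CDCA8siRNA (background 6.16%). Between the lines 5 were called higher and 4 lower in Huh7 (42% and 29.1% of all genes). TNFRSF19, a Wnt target and receptor of the tumour necrosis factor family, was higher by 4.17, and passed the filter only through Huh7. ZNRF3, a ubiquitin ligase that LGR5 and R-spondin hold in check, was higher by 1.07. TCF7, a nuclear factor of the pathway, was lower (-1.15), at 4.31 and 4.32 RPKM in Huh1 and 1.61 and 1.20 RPKM in Huh7. AXIN2, a common readout of the pathway, was at 3.53 and 3.55 RPKM in Huh1 and 2.27 and 2.91 RPKM in Huh7.

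Of 12 genes tested on the Notch and YAP axis around SOX9, ONECUT1, a liver and bile duct transcription factor, fell with CDCA8siRNA (-0.64, SE 0.127, limma adjusted p = 0.0308), and 0 rose (2.57% and 3.59% of all genes). Between the lines 6 were called higher and 3 lower in Huh7 (42% and 29.1% of all genes), with the Notch ligands JAG1 among the former (2.32) and JAG2, which passed the filter only through Huh1, among the latter (-2.49). Of 12 paralogs and relatives tested, 0 were called for CDCA8siRNA (background 6.16%). Between the lines 2 of them were higher and 5 lower in Huh7 (42% and 29.1% of all genes), with ALDH1L1 and KRT7 passing the filter only through Huh1. ALDH1L1, a folate enzyme of the aldehyde dehydrogenase family, was at 26.2 and 19.9 RPKM in Huh1 and 0 and 0.0261 RPKM in Huh7, and KRT23, a keratin, was lower (-0.88).

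THY1 and the other stromal markers were at or near 0 in Huh1, while in Huh7 collagen genes were not. The fibroblast and stellate cell list summed to 0.220 and 0.211 RPKM in Huh1 and to 142 and 188 RPKM in Huh7, and COL1A1 accounted for 107 and 125 RPKM of the latter. DCN, a proteoglycan of fibroblasts, stayed at 0.406 RPKM or less and PDGFRB, a stromal receptor, at 0.399 or less. ACTA2, also on this list, was at 0.0196 and 0 RPKM in Huh1 and at 0.720 and 1.06 RPKM in Huh7. The 3 genes of this list that were tested, the collagens COL1A1, COL1A2 and COL3A1, passed the filter only through Huh7, so their higher level there was fixed by the filter. For CDCA8siRNA 0 of the 3 were called (background 6.16%).

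The leukocyte list held 1 gene at 1 RPKM or more, CD68, a lysosomal protein of macrophages that other cells also make, at 23.3 and 16.5 RPKM in Huh1 and 3.71 and 3.73 RPKM in Huh7. PTPRC, which marks leukocytes at large, was at 0.417 RPKM or less. The endothelial marker CDH5 was listed at 0 in all 4 libraries, and PECAM1 was not analysed here.

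The genes whose centred log2(RPKM + 1) over the 4 libraries lay closest to that of PROM1, among 11776 genes, were TNFRSF19, KIF5C and NPNT, with root mean square differences of 0.0157, 0.0484 and 0.0843. All 3 were at 0.186 RPKM or less in Huh1 and reached up to 21.5 RPKM in Huh7, with the lower Huh7 value after CDCA8siRNA as for PROM1. They passed the filter only through Huh7. The likeness holds on this scale and not for plain ratios. With NCsiRNA TNFRSF19 was at 0.0942 RPKM in Huh1 and 21.5 in Huh7, against 3.83 and 101 for PROM1. Closest to ALDH1A1 were PLCD4, CTAGE6P and MACROD1, with differences of 0.0262, 0.0287 and 0.0385. All 3 were higher in Huh1 than in Huh7, and higher with CDCA8siRNA in either line. Here too the likeness holds on this scale and not for plain ratios. In Huh7 CTAGE6P was at 0.705 RPKM with NCsiRNA and 1.15 with CDCA8siRNA, against 539 and 647 for ALDH1A1. The shared directions follow from the choice of genes by pattern, and with 4 libraries such likeness is a description only.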

How the data were processed

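RNA was prepared with Trizol and an Illumina TruSeq kit, per the labels. Dose and time of the siRNA are those in the study's text. The authors deposited 1 RPKM value for each of 18398 RefSeq transcripts per library. The submitters' processing notes name CASAVA 1.8.2, TopHat2 2.0.9 and hg19, with no roles. The counter, the treatment of reads shared between copies, and any filter are not given in the sources used here. The unit was read from the values, which for many genes fall on whole or simple parts of 1 read when multiplied by a transcript length. For the markers and CDCA8 that length was searched around the annotated one, with up to 12 parts of a read and within 0.0001 of a part. No such length was found for CD24, CD44, THY1 and SOX9. The value of 1 read gave depth and, with the length, the reads behind a gene. Depth holds counting error only.

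limma 3.58.1 (R 4.3.3; lmFit, eBayes with trend) was fitted to log2(RPKM + 1) of genes with at least 1 RPKM in 2 of 4 libraries, with cell line and siRNA as terms and Benjamini-Hochberg adjustment over 11777 genes. Fold changes on this scale understate changes of low genes. Differences of 2-fold between 2 libraries used genes with at least 1 RPKM in either. Lengths and pseudogenes came from GENCODE release 29 (GRCh38), promoters from RefSeq. Python 3.11.15 with pandas 2.3.3 and scipy 1.17.1 did the rest, and the limma fit alone was tested on simulated data.

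The 10 markers and the 11 gene lists were chosen with earlier results of these data known. Named genes were the markers, CDCA8, the up to 3 called genes of largest change per list and coefficient, and the 3 genes nearest in pattern to PROM1 and to the most abundant marker. AXIN2, ALB, KRT8, KRT18, DCN, PDGFRB, ACTA2, PTPRC and CDH5 were named outside this rule, after their values were seen. A gene of the bile duct and SOX9 lists is not reported here and was left out of their counts.

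Alternatives were a pseudocount of 0.1, no filter, a minimum of 5 RPKM, 1 RPKM in each line, quantile and upper-quartile scaling, no covariate, and no trend.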

Additional observations from a re-analysis of the deposited data

Results flagged for a closer look

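For 3 markers the CDCA8siRNA and NCsiRNA libraries differed in opposite directions in the 2 lines. With 1 library per condition, none of these differences between lines could be tested. Values are differences of log2(RPKM + 1). LGR5 differed by 0.019 in Huh1 and by -0.71 in Huh7, which are -0.73 apart. The Huh1 value rests on about 3 reads a library, too few to set a direction. For PROM1 it was 0.14 in Huh1 and -0.27 in Huh7, a difference of -0.41. The Huh1 ratio was within counting error of 1 and the Huh7 ratio was not. For CD44 it was 0.059 in Huh1 and -0.015 in Huh7, a difference of -0.073, at levels of 2.10 RPKM or less.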

How the results depend on the processing

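Counts of markers changed little with the processing. Under each alternative run, 0 markers were called for CDCA8siRNA, and all markers tested were called for the cell line, except that ANPEP (and THY1, tested only without the filter) was not called in some fits, which gives 8 in place of 9 without the covariate and without the trend. Markers past 2-fold between the lines went from 6 to 5 with a minimum of 5 RPKM, for either siRNA, as CD44 then drops out. The number of all genes called for CDCA8siRNA did depend on it. It was 726 as reported, 1323 with quantile normalization, 1139 with scaling to the upper quartile and 213 without the trend of limma. It was 0 without the filter on low values, with 2440 genes at an unadjusted p under 0.05, and 0 without the cell line as a covariate, with 77. The call of CDCA8 itself was lost in these last 2 fits (limma adjusted p = 0.252 and 1.00, from 3.58e-08 over the alternatives). The log2 fold change of CD44 with CDCA8siRNA turned from 0.022 to -0.038 under quantile normalization, far from any call in either (limma adjusted p from 0.855 to 1.00 over the alternatives). Of 304 alternative values of single markers, 284 were counted as the same, 16 moved with no test involved, 3 were the lost ANPEP calls and 1 was CD44. For values of the limma fit, the same meant the same direction and call. For differences between 2 libraries it meant a shift smaller than the counting error, which for CD44 used the annotated length and is unreliable. Many of the latter could not differ, since a filter leaves the difference between 2 libraries unchanged. Leaving out a library was not run, because with 1 per condition no residual degree of freedom remains. The fit as reported compares the siRNAs within each cell line, and the fit without the line as a covariate drops that pairing. The labels number no replicates, so there is no further block. Depth limits LGR5 and THY1 in Huh1, at 3 reads or fewer if LGR5 has the shorter length, and CD44 was under 1 RPKM there.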
